A study of Caenorhabditis elegans with 12 samples.

Results

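The subject of this report is the change in polyadenylated mRNA between the 190-cell and bean stages in Caenorhabditis elegans embryos of strain MLC1800, called miR-51Fam null. The members are defined by their labels: the 2 libraries of the 190-cell stage and the 2 of the bean stage of this strain, 4 of the 12 libraries in the series. The members, the gene lists and the tests were chosen with earlier results of these data known. The study's strain list gives the genotype as nDf67, n4100 IV; nDf58 X; lucEx1057, which removes all 6 genes of the microRNA family from the chromosomes and adds an extrachromosomal array, lucEx1057, with a fosmid that carries the miR-54 cluster and the markers ttx-3::gfp and mir-35p::gfp. How embryos that had lost the array were told apart is not given in the sources used here, so a contribution from embryos with the array was not tested. The N2 wild-type libraries of the same stages (2 and 2) carry neither the deletions nor the array. For both strains, 2-cell embryos were collected from worms grown at 20 °C on OP50 bacteria and left to develop to the named stage, and each library holds 50 pooled whole embryos. The microRNA genes themselves were not analysed here, so the deletions were not checked in these data.

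MicroRNAs are short RNAs that pair through their seed with 3′ ends of mRNAs and lower the output of those mRNAs. The miR-51 family is the worm relative of miR-100, which is shared by most animals, and its loss is lethal in worms. The stages compared span the end of most embryonic cell divisions and the start of morphogenesis, when the epidermis encloses the embryo, the embryo bends into a bean, muscle and epidermis become attached through basement membrane and hemidesmosome-like structures, and a matrix forms on the outer surface ahead of the first cuticle.

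QuantSeq reads 1 position near the poly(A) tail, so a count does not depend on transcript length. Levels are given as CPM, which are reads of a gene scaled to an effective library size, the library total times a TMM factor from edgeR. That factor was 2.22 for null 190-cell replicate 1, 1.08 for replicate 2, and 0.919 and 0.852 for the null bean libraries. A larger factor lowers every level of a library. Summed over all genes tested, CPM were 450920 and 924120 in the null 190-cell libraries and 1088200 and 1173100 in the null bean libraries. How far the factors change the counts of genes without overlap between stages was not tested. Among the null libraries, 190-cell replicate 1 held only 11081 assigned reads over 3231 genes, against 1645987 for 190-cell replicate 2 and 2062598 and 5247535 for the bean libraries. In the shallow library 1 read stood for 40.7 CPM, and of the 1913 genes at 100 CPM or more in 190-cell replicate 2 it had a read for 1589. Deep libraries read a molecule many times (an estimated 15.1 reads per molecule in 190-cell replicate 2 against 1.09 in the shallow library), so the smallest level that the group could show was set by molecules, as 3 estimated molecules over both libraries: 21.4 CPM for the null 190-cell group and 9.39 CPM for the null bean group. A fold change against a group with 0 reads is given only as a lower bound, the mean of the other group over that floor. The bound covers counting error of the unread group alone, not the spread between the libraries of the other group. For a group with reads but a mean under the floor, the other group's level is given as a multiple of the floor. For a gene with 1 to 3 reads at the 190-cell stage the ratio is in estimated molecules, with each of those reads taken as a molecule and bean reads divided by the reads per molecule. Its exact 95% interval covers counting error only. The regulators that define the main tissues were read in all 4 null libraries: elt-2 of the gut, hlh-1 of body wall muscle, pha-4 of the pharynx and lin-26 of epidermis and support cells had 20.1 to 334 CPM and none passed the test between stages (adjusted p = 0.469 to 1). Nothing in the labels says that the 2 libraries of a group came from separate cultures, so p-values measure the spread between these samples, which may be technical. In whole embryos, fewer cells of a type and less RNA per cell cannot be told apart.

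Between the 190-cell and bean stages, 558 genes rose (4.63% of the 12062 tested) and 83 fell (0.688%) in null embryos at an adjusted p under 0.05 in edgeR's quasi-likelihood test. Epidermal matrix and cuticle genes, muscle and basement membrane genes, and nearly all ribosomal protein genes were among those that rose. Genes for Skp1-related proteins and for the loading of DNA replication were among those that fell. The 2 bean libraries lay wholly above the 2 190-cell libraries for 554 of the 558 (background 28.4% of all genes tested) and wholly below for 56 of the 83 (background 5.34%). The calls come from these same libraries, so the lack of overlap is largely fixed by the call and is no separate support. Of the 558 genes, 210 had 0 reads in both 190-cell libraries, 137 had 0 reads in the shallow library alone and 211 were read in it. Of the 210, 175 were above the 190-cell floor at the bean stage, with lower bounds that reached 18.2-fold and had a median of 2.04-fold. Of the 83 that fell, 23 had 0 reads at the bean stage. With 190-cell replicate 2 alone, 468 genes rose (3.88%) and 123 fell (1.02%), of which 441 and 69 were called with both libraries. On molecule-scaled counts (reads divided by the reads per molecule) 449 rose (3.72%) and 208 fell (1.72%). Of the fits run, limma voom with quality weights kept the fewest calls, 0 higher and 1 lower.

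The genes with the smallest p-values among those that rose, at a mean of 50 CPM or more and without overlap, were of several kinds. Cuticle collagen, apical junction and basement membrane genes were among them. The bZIP factor gene ces-2 (chrI:14961497-14965361, WBcel235), known for its part in a cell death decision and in the excretory duct, was at 0 and 3.37 CPM in the 190-cell libraries and at 1986 and 2427 CPM in the bean libraries. Its 190-cell level lay under the floor, and its bean level was 103 times the floor (adjusted p = 2.26e-09). The cuticle collagen gene sqt-3 (chrV:12352745-12354320) had 40.7 and 57.9 CPM at the 190-cell stage and 1986 and 1764 CPM at the bean stage. Its change was 5.07 on the log2 scale (SE 0.45, adjusted p = 1.98e-08), and both bean libraries were far above both 190-cell libraries. A second collagen gene, dpy-17, was already at 407 and 231 CPM and reached 3257 and 3769 CPM, a change of 3.63 (SE 0.39, adjusted p = 6.33e-07). The collagen gene dpy-7 (chrX:7536467-7537792), used widely as an epidermal marker, was not read at the 190-cell stage. It stood at 389 and 392 CPM at the bean stage, at least 18.2-fold higher (adjusted p = 2.89e-08).

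The actin gene act-4 had 693 and 607 CPM before and 4976 and 5296 CPM after, a change of 3.005 (SE 0.33, adjusted p = 1.1e-06). It needs no floor, since the shallow library itself held 17 reads of it. ajm-1, which encodes a coiled-coil protein of the apical junction, went from 40.7 and 13.5 CPM to 787 and 646 CPM (5.58, SE 0.62, adjusted p = 1.1e-06). Its 190-cell level was 1 read in the shallow library and lay under the floor of 25.5 CPM in replicate 2. Its estimate ran from 4.135 to 5.712 over the alternatives. The papilin gene mig-6, whose product lies in basement membranes, went from 0 and 8.99 CPM to 547 and 338 CPM (20.6 times the 190-cell floor, adjusted p = 1.37e-06). dao-2 was read in every library, at 407 and 373 CPM before and 3055 and 3640.5 CPM after (3.12, SE 0.36, adjusted p = 1.41e-06). The molting gene mlt-8 had 1 read in the 190-cell libraries and 3418 in the bean libraries, a ratio of 73.2 in molecules with an interval of 12.96 to 2909. For the small heat shock protein gene hsp-12.1 the ratio was 16.44 (4.395 to 138.2), from 2 reads to 1577. Y57G11C.31, whose role is not annotated in the tables used, was not read at the 190-cell stage and stood at 252 and 178 CPM at the bean stage, at least 10.1-fold higher. Genes were named in this set only if no bean library overlapped a 190-cell library, so that trait was fixed by the choice.

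**Figure D1:**
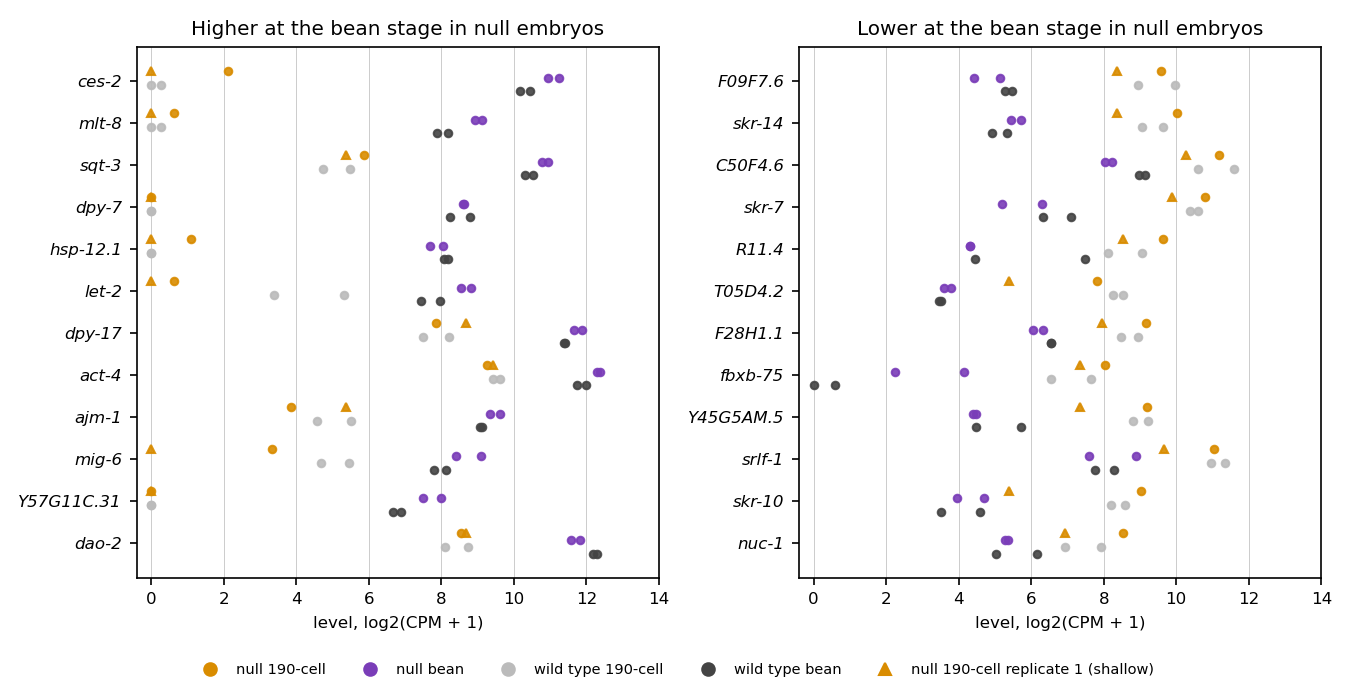
Level of the 12 genes with the smallest p among those that rose (left) and among those that fell (right), as log2(CPM + 1), in each null and wild-type library of both stages. Each point is 1 library and the triangle is the shallow null 190-cell library. Genes were picked only if these groups do not overlap, so in every row the purple null bean points lie to 1 side of the orange null 190-cell points. The levels of act-4 run from 607 and 693 CPM to 4976 and 5296 CPM.

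The matrix on the embryo's outer surface had a large share of called genes. Of 18 tested genes of the embryonic sheath and precuticle, 8 rose and none fell, with a median log2 change of 2.48 when genes at 0 reads are set at their bound, against 0 over all genes tested. Medians at the bound leave out genes with no read at either stage, here and below. The zona pellucida protein gene noah-2 went from 204 and 27.5 CPM to 1239 and 1342 CPM (4.74, SE 0.64, adjusted p = 1.97e-05). The 190-cell libraries of noah-2 differed widely, and over the alternatives its estimate ran from 2.663 to 5.491. sym-1, for a secreted leucine-rich repeat protein, went from 163 and 113 CPM to 1139.5 and 1336 CPM (3.32, SE 0.49, adjusted p = 6.32e-05). dex-1, for a matrix protein of epithelia and glia, went from 0 and 7.3 CPM to 385 and 275 CPM (15.4 times the 190-cell floor, adjusted p = 1.78e-05). Of 14 cuticle collagen genes with mutant names, 6 rose and none fell, with a median of 4.09 at the bound over those read at either stage. The list held 8 genes with no 190-cell read and 4 with no bean read. Summed over the list, collagen levels were 937 and 399.9 CPM at the 190-cell stage and 8859 and 9081 CPM at the bean stage.

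Some junction and epidermal genes were called, but most were not. Of 19 apical junction genes 5 rose and none fell, among them dlg-1, the Discs large scaffold, from 163 and 78.1 CPM to 538 and 490.5 CPM (2.43, SE 0.53, adjusted p = 0.00413). The claudin-like gene vab-9 was not read at the 190-cell stage and had 27.5 and 56.3 CPM at the bean stage, at least 1.96-fold higher. Of 15 epidermal genes, a list mainly of fate regulators and fusion genes, 3 rose and none fell, while on molecule-scaled counts 4 were higher and 1 lower. Of the 3, the collagen gene dpy-7 and the spectraplakin gene vab-10 are structural genes and not regulators of fate or fusion. vab-10 went from 40.7 and 37.6 CPM to 323 and 326 CPM (3.09, SE 0.54, adjusted p = 0.00044). The third was blmp-1, a Blimp-1 relative that acts in epidermal development, with 1 read before and 2672 after (ratio 55.7, interval 9.81 to 2216). Of 47 Hedgehog-related and Patched-related genes, families that in worms act largely in epithelia and cuticle, 6 rose and none fell, while 32 had no read at the 190-cell stage. wrt-10 went from 0 and 73 CPM to 382 and 657 CPM (3.08, SE 0.58, adjusted p = 0.00082), and wrt-5 from 0 and 12.9 CPM to 208 and 136 CPM (8.02 times the 190-cell floor, adjusted p = 0.000663). The Patched-related gene ptr-25 went from 40.7 and 2.25 CPM to 285 and 184 CPM (6.22, SE 0.78, adjusted p = 6e-06). Its 190-cell level was 1 read in the shallow library and lay under the floor of 25.5 CPM in replicate 2. The size of its change is thus uncertain, and the estimate ran from 2.52 to 6.61 over the alternatives.

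Of 36 genes of body wall muscle 13 rose and none fell, with a median of 1.57 at the bound. 16 of the 36 had no read at the 190-cell stage, and 27 had bean libraries wholly above the 190-cell libraries (background 28.4% of all genes tested). The troponin I gene tni-1 was at 172 and 151 CPM at the bean stage, at least 7.54-fold higher (adjusted p = 2.05e-06). The troponin T gene tnt-3 was at 145 and 49.6 CPM, at least 4.55-fold higher (adjusted p = 1.53e-05). The body wall myosin heavy chain genes unc-54 and myo-3, picked out here after their values were seen, had no 190-cell read and bean levels of 144 and 101 CPM and of 54.4 and 15 CPM. Their bean means were at least 5.73-fold and 1.62-fold higher (adjusted p = 0.00238 and 0.000936). For myo-3 the second bean library itself lay under the 190-cell floor of 21.4 CPM, so its bound holds for the mean only. The muscle regulator hlh-1 was not called: it was at 40.7 and 87.6 CPM before and 20.1 and 103.96 CPM after, and its libraries overlapped (adjusted p = 1).

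The basement membrane and the attachments that join muscle to epidermis had called genes too, all of them higher. Of 21 basement membrane genes 8 rose and none fell, with a median of 0.90 at the bound. let-2, for the α2 chain of type IV collagen, had 1 read before and 2521 after, at 453 and 372 CPM in the bean libraries (ratio 57.9, interval 10.2 to 2303). Its partner gene emb-9, the α1 chain, picked out after its values were seen, had no 190-cell read and 223 and 195 CPM at the bean stage, at least 9.76-fold higher. The adjusted p of emb-9 was 0.044 and, with 190-cell replicate 2 alone, 0.12. The perlecan gene unc-52 and the agrin gene agr-1, both heparan sulfate proteoglycans, were unread before and at 29.6 and 39.6 CPM and at 35.9 and 35.1 CPM after, at least 1.61-fold and 1.66-fold higher. Of 14 genes of the hemidesmosome-like attachments 5 rose and none fell, and 12 of the 14 had bean libraries wholly above (background 28.4% of all genes tested). Among them let-805, the myotactin gene, was at least 2.21-fold higher. Of 24 actomyosin and spectrin genes 4 rose, including the RhoGEF gene rhgf-2, from 0 and 4.49 CPM to 47 and 110.3 CPM (3.66 times the 190-cell floor, adjusted p = 0.000376), and the β-heavy spectrin gene sma-1, from 0 and 167 CPM to 624 and 559.8 CPM (2.199, SE 0.54, adjusted p = 0.0126). The formin gene fhod-1 was also called, but its bean levels of 13.7 and 8.94 CPM lay under the 190-cell floor, so no fold is given.

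A few genes of inner organs and neurons were called, in lists to be read against the 4.63% of all genes tested that rose. Of 20 gut genes 3 rose: the gut actin gene act-5, at 39.6 and 53.2 CPM and at least 2.17-fold higher, the cathepsin B-like protease gene cpr-6, with 1 read before and 552 after (ratio 14.9, interval 2.5004 to 606), and the innexin gene inx-15 (ratio 12.3, interval 2.03 to 502). Of 16 pharynx genes 3 rose: the homeobox genes ceh-22 (at least 1.98-fold) and ceh-34 (4.36, SE 1.06, adjusted p = 0.0105) and the DNA-binding factor gene peb-1 (at least 1.60-fold). The estimate for ceh-34 ran from 1.504 to 4.803 over the alternatives. Of 28 regulators of neuronal fate 2 rose, zag-1, a ZEB homologue (ratio 14.5, interval 2.42 to 589), and unc-3, an EBF homologue (at least 2.101-fold). Of 25 synaptic and pan-neuronal genes 1 rose, the syntaxin gene unc-64, at 0 and 0.562 CPM before and 72.3 and 69.1 CPM after (adjusted p = 0.021, and 0.0651 with 190-cell replicate 2 alone). None of 31 cilium genes passed the test, and 28 of them had no read at the 190-cell stage. Among 10 Hox genes and cofactors, the posterior Hox gene egl-5 rose, from no read to 14.3 and 53.2 CPM (at least 1.57-fold, adjusted p = 0.0459, and 0.0633 with 190-cell replicate 2 alone). For egl-5 the first bean library lay under the 190-cell floor of 21.4 CPM, so its bound holds for the bean mean only. The homeobox gene ttx-3, whose regulatory sequence drives a marker of the array, was unread in both null 190-cell libraries and in all 4 wild-type libraries of these stages, and stood at 15.3 and 24.8 CPM in the null bean libraries. It did not pass the test (adjusted p = 0.38), and reads of the endogenous gene and of the array cannot be told apart in these counts.

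**Figure D2:**
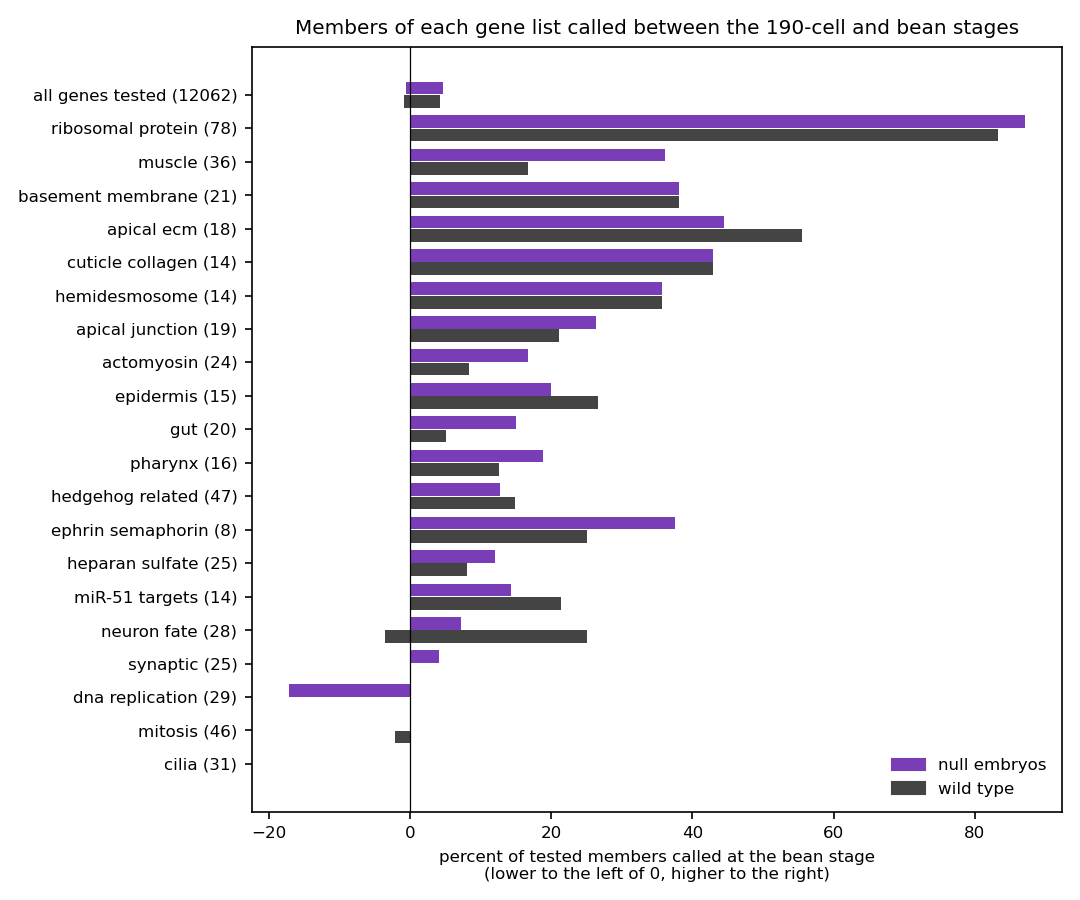
Percent of tested members of 20 gene lists and of all genes tested that were called between the stages, lower to the left of 0 and higher to the right, in null embryos (purple) and wild type (grey). The number of tested members stands in brackets. Ribosomal proteins stand out with 68 of 78 called higher in null embryos. Among the 20 lists, DNA replication is the only one whose null bar extends to the left, with 5 of 29 called lower.

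Ribosomal protein genes gave the broadest change. Of 78 tested, 68 rose in null embryos and none fell, with a median log2 change of 1.84. In all 78 the 2 bean libraries lay above the 2 190-cell libraries (background 28.4% of all genes tested). The changes ran from 0.61 to 2.79. Every member was read in the 190-cell group and the list held 860 reads in the shallow library, so these values do not rest on the floor. rpl-11.2 had 326 and 373 CPM before and 1951 and 2992 CPM after (2.79, SE 0.37, adjusted p = 1.12e-05). rpl-39 had 244 and 639.8 CPM before and 2840.4 and 3849.5 CPM after (2.75, SE 0.38, adjusted p = 1.78e-05). rpl-15 had 367 and 355 CPM before and 1804 and 1947 CPM after (2.39, SE 0.35, adjusted p = 4.36e-05). Summed over the list, levels were 35043 and 49506 CPM at the 190-cell stage and 141310 and 158190 CPM at the bean stage. With 190-cell replicate 2 alone 63 rose with a median of 1.63, and on molecule-scaled counts 68 rose with a median of 1.82. The 12 protein-coding genes of the mitochondrial chromosome, a list added after the data were seen, had 5 called higher and none lower. In all 12 the bean libraries lay above the 190-cell libraries, the median change was 1.38, and their summed level went from 48490 and 85053 CPM to 147100 and 196690 CPM. With 190-cell replicate 2 alone 3 rose. In wild type 0 of the 12 were called, with a median of 0.01, but 0 of the 12 passed the test of the difference between strains.

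**Figure D3:**
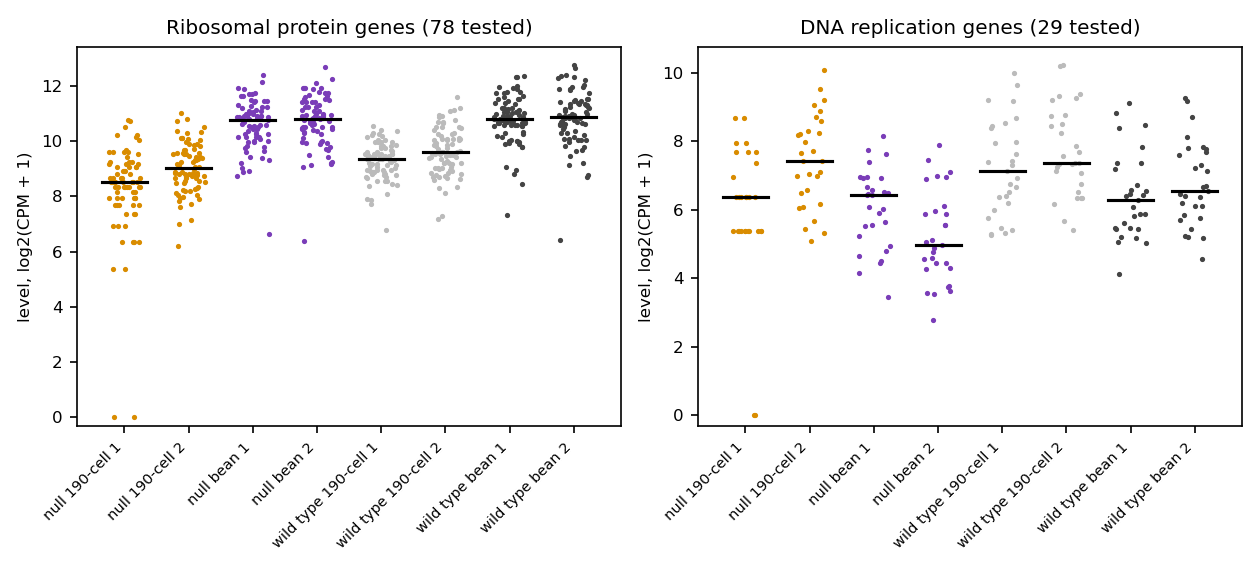
Level of each tested ribosomal protein gene (left, 78) and DNA replication gene (right, 29) as log2(CPM + 1) in the null and wild-type libraries of both stages, with the median of each library as a black bar. The null bean medians stand above the null 190-cell medians for ribosomal proteins, and the replication genes of the second null bean library lie lowest.

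The genes that fell were led by F09F7.6 (chrIII:5551232-5552135), without an annotated role in the tables used, from 326 and 768 CPM to 34.3 and 20.3 CPM (-4.45, SE 0.55, adjusted p = 4.05e-06). Skp1-related genes, whose products act in SCF ubiquitin ligases, were prominent, although that family was singled out after the data were seen. skr-14 went from 326 and 1044 CPM to 42.2 and 51.2 CPM (-3.98, SE 0.60, adjusted p = 9.83e-05). skr-7 went from 937 and 1761 CPM to 77.1 and 35.5 CPM (-4.64, SE 0.64, adjusted p = 0.000208). skr-10 went from 40.7 and 519.6 CPM to 24.8 and 14.5 CPM (-4.11, SE 0.84, adjusted p = 0.00487). These were the 3 called of 18 tested skr genes. The F-box gene fbxb-75 went from 163 and 263 CPM to 3.7 and 16.8 CPM (-4.41, SE 0.96, adjusted p = 0.00362). nuc-1, the DNase II that degrades DNA of dying cells, went from 122 and 369.6 CPM to 38 and 40.02 CPM (-2.83, SE 0.64, adjusted p = 0.00502). Over the alternatives the nuc-1 estimate ran from -3.3 to -1.646. The other genes named by their p-values (C50F4.6, R11.4, T05D4.2, F28H1.1, Y45G5AM.5 and srlf-1) had log2 changes of -5.02 to -2.19 with adjusted p from 0.00011 to 0.00469. The 12 genes were chosen among those whose bean libraries lay below both 190-cell libraries. In T05D4.2 and skr-10 the shallow library held only 1 read.

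Of 29 tested genes of DNA replication none rose and 5 fell, with a median log2 change of -1.43, and 28 of the 29 estimates were negative. All 5 load or form the replicative helicase. mcm-7 went from 407 and 1084 CPM to 285 and 125 CPM (-1.97, SE 0.52, adjusted p = 0.0232). mcm-5 overlapped between stages, with 81.5 and 527 CPM before and 85.5 and 18.6 CPM after (-2.82, SE 0.71, adjusted p = 0.025). mcm-4 (-2.30, SE 0.68, adjusted p = 0.0423), mcm-2 (-2.93, SE 0.82, adjusted p = 0.0448) and orc-1 (-2.43, SE 0.73, adjusted p = 0.0492) passed the threshold narrowly. With 190-cell replicate 2 alone the list also had 5 genes lower, while mcm-4 no longer passed (adjusted p = 0.0569), and on molecule-scaled counts 11 genes were lower. Without null bean replicate 2, the library with the lowest levels of mcm-2, mcm-4, mcm-5, mcm-7 and orc-1, 0 of the 29 were called, as without 190-cell replicate 2, and without either wild-type bean library, which enter the pooled spread, 1 was called. None of 46 mitotic genes passed the test, with a median of -0.80, while 5 were lower with 190-cell replicate 2 alone (median -1.21), 9 on molecule-scaled counts and 17 on those counts without the shallow library, a setting added after the data were seen. Their best-expressed member, the cyclin B gene cyb-3, was at 1100.2 and 3758 CPM before and 547 and 655 CPM after (-2.07, SE 0.57, adjusted p = 0.0541), and with 190-cell replicate 2 alone its adjusted p was 0.00376. The Cip/Kip inhibitor gene cki-1, which holds cells out of the cycle, was the 1 gene of 12 cell cycle exit genes that rose, from 0 and 14 CPM to 125 and 258 CPM (8.95 times the 190-cell floor, adjusted p = 0.00112). None of 10 early zygotic fate regulators, 16 eggshell and oocyte genes or 19 germ granule genes passed the test. Their medians at the bound were -0.665, 0.731 and 0. The fitted medians were -2.62, 1.42 and 0.563 in null embryos and -1.94, -1.85 and -0.326 in wild type, and no member passed the test of the difference between strains. On molecule-scaled counts 2 early regulators were lower, and no gene of the other lists was called. Of 21 maternal RNA-binding regulators 1 was called, mex-3, from no read to 49.1 and 15 CPM (mean at least 1.496-fold higher, adjusted p = 0.0135). Its second bean library lay under the 190-cell floor of 21.4 CPM, so the bound holds for the mean only. Summed over that list, the bean libraries differed widely, at 1511 CPM in replicate 1 and 259 CPM in replicate 2, against 244 and 665 CPM at the 190-cell stage. Without bean replicate 1 the list had 1 gene higher and 4 lower with a median change of -1.81, against 0.92 with both, and without bean replicate 2 it had 3 higher and none lower.

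The 14 predicted targets that the study discusses were followed in full, since the deletions apply at both stages. 2 rose and none fell, with a median of 0.66 at the bound. In wild type 3 of the 14 rose over the same interval and none fell. The fitted medians were 0.99 in null embryos and 0.67 in wild type, and 0 of the 14 passed the test of the difference between strains. The ephrin gene efn-2 (chrIV:10576350-10578288) was unread at the 190-cell stage and stood at 147 and 147 CPM at the bean stage, at least 6.88-fold higher (adjusted p = 4.36e-05). kal-1 (chrI:14128591-14142207), which encodes the worm anosmin and binds heparan sulfate, went from 285 and 201 CPM to 647 and 748 CPM (1.62, SE 0.49, adjusted p = 0.0468). Both also passed with 190-cell replicate 2 alone (adjusted p = 0.000134 and 0.038), but kal-1 did not without null bean replicate 1 (adjusted p = 0.109) or replicate 2 (0.213). The heparan sulfate sulfotransferase genes did not pass the test. hst-1 was at 81.5 and 117 CPM before and 72.3 and 74.4 CPM after, hst-6 at 81.5 and 33.7 CPM before and 90.3 and 99.9 CPM after, and hst-2 at 0 and 108 CPM before and 34.3 and 46.9 CPM after. hst-3.2 was read in only 1 library of each stage, at 24.7 and 16.8 CPM. The Frizzled receptor genes mig-1 (0 and 65.7 CPM before, 125 and 173 CPM after) and lin-17 (81.5 and 74.1 CPM before, 79.2 and 126 CPM after) did not pass. Nor did the ephrin genes vab-2 (0 and 64.6 CPM before, 112.5 and 79.1 CPM after) and efn-4 (0 and 180.3 CPM before, 125 and 113 CPM after).

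Nor did the last targets pass the test. The cadherin gene cdh-3 had 0 and 20.2 CPM before and 66 and 45.6 CPM after (1.59, SE 0.71, adjusted p = 0.267), and the Notch receptor gene lin-12 had 40.7 and 212 CPM before and 81.3 and 108 CPM after. lon-1, for a secreted protein that regulates body size, had 1 read in each 190-cell library and 88 reads at the bean stage (ratio 1.32, interval 0.235 to 13.3). The cell fusion gene eff-1 was unread before and at 8.45 and 0.447 CPM after, under the floor. Of 25 heparan sulfate genes 3 rose, namely kal-1, unc-52 and agr-1, where 4.63% of all genes tested rose. Of 8 ephrin, semaphorin and receptor genes 3 rose: efn-2, the plexin gene plx-2, unread before and at 86.6 and 53.7 CPM after (at least 3.27-fold), and the semaphorin gene smp-1, with 1 read in each 190-cell library (ratio 6.14, interval 1.55 to 53.2). Of 26 Wnt pathway genes 1 rose, the ligand gene mom-2, from 0 and 3.37 CPM to 148 and 63.9 CPM (4.945 times the 190-cell floor, adjusted p = 0.00467, and 0.827 without 190-cell replicate 2). None of 16 Notch genes passed. Of 14 genes of microRNA production and action 1 rose, the deadenylase gene ccr-4, from 448 and 872 CPM to 1684 and 1900.0 CPM (1.35, SE 0.38, adjusted p = 0.0315, and 0.17 with 190-cell replicate 2 alone).

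The other lists had 1 to 3 called genes each, or none, where 4.63% of all genes tested rose and 0.688% fell. Of 21 cell death genes ces-2 rose and nuc-1 fell. Of 11 stress genes the asparagine synthetase gene asns-2 rose from 40.7 and 12.4 CPM to 189 and 158 CPM (3.64, SE 0.61, adjusted p = 0.000268), and atf-4, the factor of the amino acid response, went from 81.5 and 4.49 CPM to 96.6 and 111 CPM (3.602, SE 1.05, adjusted p = 0.0406). In 190-cell replicate 2 both lay under that library's floor of 25.5 CPM. Over the alternatives their estimates ran from 2.089 to 3.763 and from 0.3506 to 4.462. The call of atf-4 was lost in 10 of 18 alternatives, among them without bean replicate 1 (adjusted p = 0.0577), bean replicate 2 (0.091) and 190-cell replicate 2 (1). The bZIP gene zip-8 fell from 448 and 1727 CPM to 252 and 353 CPM (-1.95, SE 0.45, adjusted p = 0.00641). The size of the zip-8 change is uncertain, with estimates from -2.568 to -0.567 over the alternatives. Of 18 glycolysis genes the enolase gene enol-1 rose, with 1 read before and 498 after (ratio 12.3, interval 2.03 to 502). Of 31 tested histone genes 3 rose: his-71 and his-74, which encode variants of histone H3, and his-35, a histone H2A gene with 1 read before and 169 after (ratio 3.95, interval 0.547 to 173). With 190-cell replicate 2 alone the adjusted p of his-74 was 0.0622. Core histone genes are near-identical copies whose reads may be split between them, so these values are uncertain. Transcripts of adult tissue were nearly absent: 6 yolk protein genes summed to 0.447 to 40.7 CPM in the null libraries (1 read in the shallow library), the major sperm protein genes to 0 at the 190-cell stage and 7.92 and 4.92 CPM at the bean stage, and the larval and adult cuticle collagen genes to at most 11.1 CPM. None of these 3 lists had a called gene.

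The same interval in wild type, which shares no library with the null comparison, had 504 genes higher (4.18%) and 102 lower (0.846%). Of the 558 genes that rose in null embryos, 335 also rose in wild type, which is 60.04% of the null list and 66.5% of the wild-type list, and 531 had the same sign. Of the 83 that fell, 42 also fell in wild type (50.6% of the null list and 41.2% of the wild-type list), and 81 had the same sign. No gene was called in opposite directions. Over 4846 genes with a mean of 20 CPM or more and reads in the groups compared, the log2 changes of both strains had Pearson's r of 0.672 and Spearman's rho of 0.592, a description across genes, which are not independent replicates and whose values in all 8 libraries were scaled together. With null 190-cell replicate 2 alone Pearson's r was 0.664. Ribosomal protein genes rose in wild type too (65 of 78), as did act-4, sqt-3 and dpy-17 (log2 changes of 2.35, 5.33 and 3.51) and dpy-7, unread in the wild-type 190-cell libraries and at 444 and 299 CPM in the bean libraries. No replication gene was called in wild type (0 of 29), and whether that differs from the 5 of 29 in null embryos was tested gene by gene only, where no member passed.

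**Figure D4:**
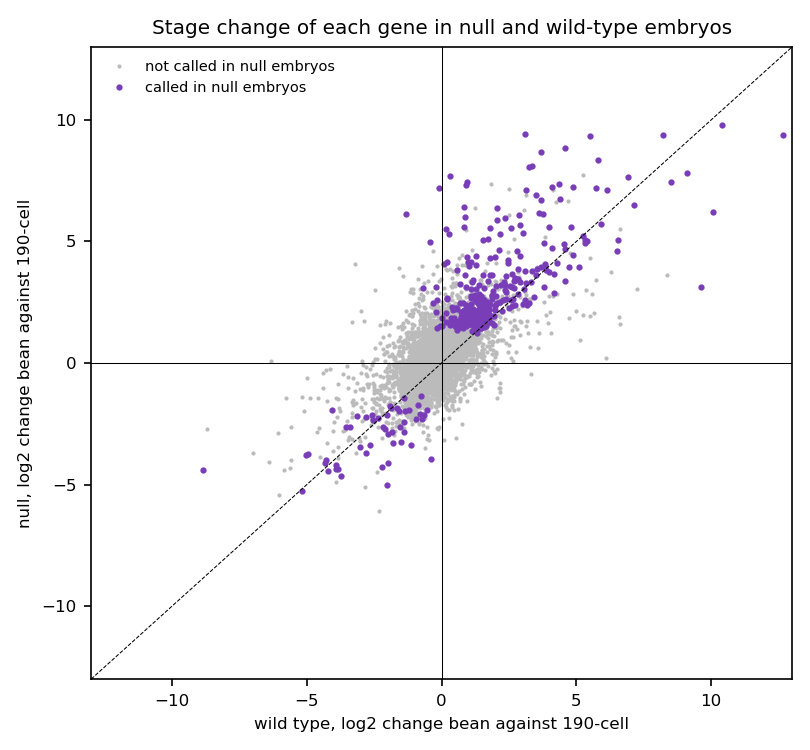
Log2 change from the 190-cell to the bean stage of each of 4846 genes in wild type (horizontal axis) and null embryos (vertical axis). Purple points are the 369 of these genes called in null embryos, of which 359 have the same sign in wild type. The dashed line marks equal change.

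The test of the difference itself, null change minus wild-type change, called 7 genes higher (0.058%) and 4 lower (0.0332%), with 707 genes at an unadjusted p under 0.05. All 11 had 0 reads in the shallow library. let-2, at 38.5 and 9.55 CPM in the wild-type 190-cell libraries and at 249 and 173 CPM in the wild-type bean libraries, had 1 read in the null 190-cell group and a larger change in null embryos (adjusted p of the difference 0.0134). enol-1 was at 288 and 104.4 CPM in the wild-type 190-cell libraries and 203 and 163 CPM in the wild-type bean libraries, with 1 read in the null 190-cell group and 110.4 and 64.6 CPM in the null bean group (adjusted p of the difference 0.0303). In the other direction, mlt-11, a molting gene, was nearly unread in the wild-type 190-cell libraries (0 and 0.597 CPM), but had 15.7 CPM in null 190-cell replicate 2, under that library's floor of 25.5 CPM (adjusted p of the difference 0.0137). No gene passed this test among genes with a mean of 10 CPM or more fitted on their own, and 1 higher and 0 lower passed on molecule-scaled counts. None of the 14 predicted targets passed it.

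The shallow library was set aside in turn to see which values rest on it. Of the 395 called genes with reads in 190-cell replicate 2 and in the bean group, 321 were called with replicate 2 alone and 74 were not, and no estimate changed sign. Replicate 2 alone minus both libraries gave a median difference of -0.165 in log2, and 342 of the 395 estimates were lower without the shallow library. The median change over all genes tested was 0.23 with both libraries, 0.07 over the 3015 genes read in all 4 null libraries and 0 with replicate 2 alone. The balance of calls differed between settings: 87.1% of the calls were higher with both libraries, 79.2% with replicate 2 alone and 68.3% on molecule-scaled counts, while 643 were higher and 267 lower with only the libraries of the contrast. With the shallow library as the sole 190-cell sample, 182 genes rose and 2 fell. On molecule-scaled counts the genes named above that no longer passed were mainly those given as low bounds or from few reads: vab-9, ceh-22, peb-1, unc-3, let-805, unc-52, agr-1, myo-3, fhod-1, egl-5, mex-3, atf-4, his-35, his-71 and his-74 (adjusted p = 0.0501 to 0.532).

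**Figure D5:**
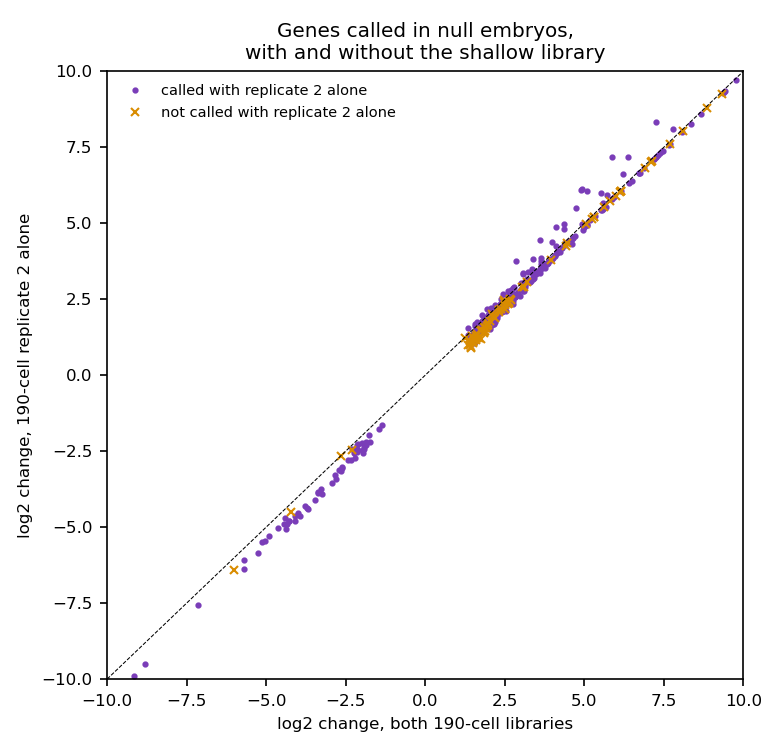
Log2 change of the 395 called genes with both null 190-cell libraries (horizontal axis) and with replicate 2 alone (vertical axis). Purple points (321) were called in both fits and orange crosses (74) were not called with replicate 2 alone. Points lie along the dashed line of equality, and 342 of them sit under it.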

How the data were processed

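Polyadenylated mRNA of 50 pooled embryos per library was measured by QuantSeq. The authors tagged reads with molecular identifiers (UMI-tools), trimmed them, mapped them to WBcel235 with STAR and deposited HTSeq read counts per gene, not normalised, in 1 table per library, with 20362 genes and 5 summary lines. The processing notes also list DESeq2. Tool versions, annotation release and strand setting are not given in the sources used here. Removal of duplicates is described, yet the zeros in deep libraries fit many reads per molecule, so the reads per molecule of a library were estimated from how often genes at 1 to 3 CPM elsewhere had no read in it. Of all reads, 31.8% to 51.6% in the 4 null libraries were assigned to a gene, and summary lines were kept out.

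The test took genes whose counts summed to 20 or more across the 12 libraries (12062). One edgeR 4.0.16 quasi-likelihood model (R 4.3.3, TMM, a mean for each of 6 groups, robust, two-sided, Benjamini-Hochberg) gave both stage changes and their difference. Group spread was pooled over all 12 libraries, which carry 1 batch label. Alternatives used DESeq2 1.42.0, limma 3.58.1 voom, other size factors and filters, molecule-scaled counts (reads divided by reads per molecule), a replicate block and omission of single libraries. The script was tested on simulated data. Symbols came from the Ensembl WBcel235 annotation and matched 19643 genes. The members, 37 gene lists and tests were chosen with earlier results of these data known. Named genes were the 14 targets, the 12 called genes with the smallest p in each direction with groups that do not overlap and a mean of 50 CPM or more, up to 3 called genes per list and direction, or the 3 highest where none was called, and up to 5 genes per direction of the test between strains. The 12 mitochondrial symbols listed did not match, so these genes were taken by chromosome. The authors' own comparisons were not used.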

Additional observations from a re-analysis of the deposited data

Results flagged for a closer look

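The stage change differed between null and wild-type embryos for 11 genes in edgeR's test of the difference, and the null side of each rests on 190-cell replicate 2, since the shallow library had no read of any of them. The change was larger in null embryos for Y56A3A.7 (adjusted p = 0.0134), let-2 (0.0134), enol-1 (0.0303), fbxl-3 (0.0406) and cpr-6 (0.0406). It was smaller, or of the other sign, for mlt-11 (0.0137), Y37D8A.16 (0.0303), Y71H2B.4 (0.0471) and T19A5.3 (0.0471). T19A5.3 had 8 reads in 1 null 190-cell library and none in the null bean libraries, so its values are at the limit of detection.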

How the results depend on the processing

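Of 81 named genes called in null embryos, none changed sign under any of the 18 alternatives, and 62 passed both with 190-cell replicate 2 alone and on molecule-scaled counts. Without 190-cell replicate 2, 60 of the 81 were lost; the sole 190-cell sample of that fit is the shallow library, assumed to vary like the others. With limma voom and quality weights 80 were lost. The cause of either loss was not tested.

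In null embryos, genes lower numbered 132 with no filter on low counts, 267 with only the libraries of the contrast, 208 on molecule-scaled counts, 327 on those counts without the shallow library (chosen after seeing the data), 149 with DESeq2 and 1 with voom, which called 0 higher. Omission of single libraries gave 182 (without null 190-cell replicate 2) to 710 higher and 2 to 135 lower, with 32 lower without null bean replicate 2. In wild type, genes lower numbered 169, 314, 295, 323 and 479 under no filter, contrast libraries only, molecule-scaled counts, those without the shallow library and voom, and 30 to 134 with single libraries omitted. The difference between strains had 3 higher and 2 lower with TMMwsp, 78 and 15 with no filter, 42 higher with the contrast libraries only, 0 and 0 at a mean of 10 CPM or more and with voom, 1 and 0 on molecule-scaled counts with or without the shallow library, and 14 and 10 with DESeq2. Omission of single libraries gave 0 to 61 higher and 0 to 39 lower, the highest without wild-type 190-cell replicate 2.

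Replicate numbers did not pair the samples (correlation of deviations 0.028 between the null groups). A replicate block gave 722 higher in null embryos, 188 lower in wild type, and 62 higher and 13 lower for the difference.

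Among genes not called, voom turned hst-2 to 0.28, efn-4 to 1.47 and eff-1 to -1.81. With single libraries omitted, hst-2 ran from -1.46 to 9.94, hst-3.2 from -8.62 to 7.68, lin-12 from -1.22 to 1.21, lon-1 from -1.17 to 4.84 and efn-4 from -0.66 to 11.49. hlh-1 ran from -1.88 to 0.61. For the difference between strains, mlt-11 ran from -8.92 to 1.95, Y37D8A.16 from -7.58 to 1.54 and Y71H2B.4 from -9.89 to 1.97, the highest without null 190-cell replicate 2.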
